A study of Rattus norvegicus with 12 samples.

Results

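The neuregulin and ErbB genes were read in the free walls of the neonatal rat heart, in the left ventricle (LV) and the right ventricle (RV), with and without volume overload (VO). They were taken by gene name from the 32545 genes of the deposited table and comprised 7 genes. These are the ligands Nrg1 and Hbegf, the receptors Egfr, Erbb2, Erbb3 and Erbb4, and Errfi1, an intracellular inhibitor of the receptors. All 7 were listed, and 6 had a mean of at least 0.5 FPKM (fragments per kilobase of gene, scaled to the sequencing depth) over the 12 libraries and were tested. Nrg1, with a mean of 0.15 FPKM, was not. Of the 4 groups, the LV after a sham operation had the lowest mean of 5 of the 7 genes (Nrg1, Hbegf, Egfr, Erbb2 and Erbb4). The share of all genes with their lowest mean in that group was not counted, so this is not shown to be particular to the members. Among the tested members the largest log2 difference was that of Erbb4, but none of the differences passed the adjusted threshold in the limma fit used for the reported values. Some passed under other settings, given with each gene.

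Total RNA came from SD (Sprague–Dawley) rats that were operated on at postnatal day 1 (P1) and examined at P7, and the labels name no other agent or allele in any group. In the VO groups a fistula joined the abdominal aorta and the inferior vena cava, which returns arterial blood to the heart and loads both ventricles. The sham groups had a sham operation. Each of the 4 groups (sham LV, VO LV, sham RV, VO RV) had 3 libraries, and the labels do not say whether libraries of a group came from separate animals or whether the LV and RV of 1 animal were used, so p-values measure only the spread between these libraries. The comparisons asked how the ventricles differ after a sham operation, how each differs under VO, and whether their responses differ.

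ErbB receptors are tyrosine kinases that pair at the cell surface. Egfr binds Hbegf and other members of the EGF family, Erbb3 and Erbb4 bind neuregulins, Erbb2 has no known ligand of its own and serves as the preferred partner of the others, and Erbb3 has little kinase activity by itself. In the heart, neuregulin-1 is released mainly by endothelial and endocardial cells and acts on cardiomyocytes through Erbb4 and Erbb2, a route needed for trabeculation of the embryonic ventricle and for the maintenance of the adult one. Metalloproteases release many of the ligands from the cell surface, adaptors couple the receptors to the Ras-ERK and PI3K-Akt cascades, and induced inhibitors such as Errfi1 (also called Mig6) close the loop.

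The start regions of 4 members are shown, those of the 3 receptors that had lower values together in sham LV (below) and that of Errfi1, the most abundant member, for contrast. Each sequence is the 250 bases before the annotated start, 5′ to 3′ on the strand of the gene, from RefSeq on build GRCr8. The positions are chr9:78045607-78045856 (minus strand) for Erbb4, chr10:83907351-83907600 (plus) for Erbb2, chr14:95378376-95378625 (plus) for Egfr and chr5:166606591-166606840 (plus) for Errfi1. Capitals mark matches on either strand to the searched letters.
Erbb4: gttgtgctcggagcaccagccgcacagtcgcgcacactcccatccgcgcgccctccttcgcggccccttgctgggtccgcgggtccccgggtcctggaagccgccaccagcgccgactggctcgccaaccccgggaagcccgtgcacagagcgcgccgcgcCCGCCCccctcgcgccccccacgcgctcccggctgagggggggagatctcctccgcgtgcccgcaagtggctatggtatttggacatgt
Erbb2: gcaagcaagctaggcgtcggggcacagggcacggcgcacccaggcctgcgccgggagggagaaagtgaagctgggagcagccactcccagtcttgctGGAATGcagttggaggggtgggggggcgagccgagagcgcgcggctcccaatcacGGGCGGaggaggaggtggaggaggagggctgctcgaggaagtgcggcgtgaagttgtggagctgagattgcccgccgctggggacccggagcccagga
Egfr: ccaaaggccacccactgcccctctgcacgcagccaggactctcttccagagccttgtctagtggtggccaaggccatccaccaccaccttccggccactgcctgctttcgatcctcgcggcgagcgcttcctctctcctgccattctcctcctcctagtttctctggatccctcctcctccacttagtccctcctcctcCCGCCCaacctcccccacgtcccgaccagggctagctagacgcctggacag
Errfi1: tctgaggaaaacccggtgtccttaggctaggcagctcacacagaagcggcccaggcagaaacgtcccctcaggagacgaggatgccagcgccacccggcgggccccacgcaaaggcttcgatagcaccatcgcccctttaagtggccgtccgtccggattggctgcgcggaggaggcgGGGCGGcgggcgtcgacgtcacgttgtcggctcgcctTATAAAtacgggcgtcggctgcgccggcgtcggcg

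The motifs searched on both strands were the TATA box (TATAAA), the GC box (GGGCGG), the TEAD motif (GGAATG), the E-box (CACGTG), the cAMP response element (TGACGTCA) and the AP-1 motif (TGANTCA). A GC box was present in all 4 sequences, and 30.5% of the 33469 promoters of the same length held one. Erbb2 also held a TEAD motif, found in 12.1% of all promoters, and Errfi1 a TATA box at bases -35 to -30 from the start, found in 12.9%. None of the 4 held the E-box, the cAMP response element or the AP-1 motif, which 5.59%, 1.59% and 6.34% of all promoters held. G and C made up 73.6% of the Erbb4 sequence, 69.2% of Erbb2, 63.6% of Egfr and 67.2% of Errfi1, against a median of 51.2% over all promoters. These matches describe the letters only. Of the 7 members, 5 were matched in the promoter table (these 4 and Hbegf), and Nrg1 and Erbb3 were not.

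The libraries held 14121713 to 16871371 reads on genes. The 8 markers of ventricular cardiomyocytes fixed for this check were above 0 in all 12 libraries, with sums of 17800 to 28300 FPKM. Sham RV replicate 1 and VO RV replicate 2 stood apart by atrial transcripts. Their summed FPKM of Myl7, Sln, Bmp10 and Myl4 was 440 and 1520, against 148 to 306 in the other 10 libraries, and Sln, an atrial regulator of the calcium pump, was 97.7 and 388 FPKM in them and 0 to 0.678 elsewhere. Of the 7 members, 6 had their highest value in one of these 2 libraries, Errfi1 being the exception. The same count was not made over all genes, so this is not shown to be particular to the members. The same libraries were also high in fibroblast markers, whose summed FPKM was 3070 and 4080 against 1770 to 2560 in the other 10 libraries, and in markers of endocardium and valve (385 and 637 against 169 to 330), and low in the summed ventricular cardiomyocyte markers (21500 and 17800 against 25000 to 28300). That sum rests mainly on the most abundant markers, and not every marker was low. In sham RV replicate 1 Ryr2 was 55.8 FPKM, the highest of the 12 libraries, and Myh6 (2323 FPKM) and Myh7 (1132 FPKM) lay within the range of the other 10. Endothelial markers also differed between the sham groups. Of 5 measured, 3 were called higher in sham LV, and their summed FPKM was 464 to 509 in sham LV and 315 to 350 in sham RV. Red blood cell markers summed to 9620 to 13200 FPKM in sham LV and 4900 to 8160 FPKM in sham RV, without overlap. Ventricular cardiomyocyte markers summed to 25200 to 26500 FPKM in sham LV and 21500 to 25100 FPKM in sham RV, also without overlap. Endocardium and valve markers were lower in sham LV without overlap (235 to 277 against 282 to 385 FPKM), the direction of Erbb4, Erbb2 and Egfr. Among them Npr3 had a log2 difference of -1.76 (adjusted p = 0.09 by limma). It was 1.7 to 3.47 FPKM in sham LV and 8.86 to 12.7 FPKM in sham RV. Of the 3 load-sensitive transcripts, the natriuretic peptide gene Nppb was called higher in sham LV (log2 difference 1.2, adjusted p = 0.0325 by limma), Nppa had 2.09 (adjusted p = 0.284) and Ankrd1 had -0.53 (adjusted p = 0.0508), with 510 to 668 FPKM in sham LV and 849 to 862 FPKM in sham RV. Of the 4 epicardial markers Wt1 was called higher (0.55, adjusted p = 0.0364 by limma), and the other 3 were below 0 and not called (Msln -1.55, Upk3b -1.04 and Tbx18 -0.18), for a median of -0.61. Without sham RV replicate 1, 0 of 13910 tested genes were called between the sham ventricles, so these marker calls depended on that library. Between VO LV and sham LV the summed FPKM of endothelial markers (359 to 406 against 464 to 509) and of fibroblast markers (1770 to 2160 against 2270 to 2400) did not overlap and was lower under VO, and that of skeletal muscle markers (3690 to 4370 against 2390 to 3660) and load-sensitive ventricular transcripts (1830 to 2890 against 1400 to 1780) did not overlap and was higher. The skeletal muscle sum lay almost wholly in Acta1 and Ckm, which heart muscle also expresses, and Tnnt3 had a log2 difference of -0.73 in this comparison, with Myh3 and Myog at most 0.139 and 0.299 FPKM in all 12 libraries. The part of these markers in the results was not tested, and in bulk tissue fewer cells of a type and less RNA per cell cannot be told apart.

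Nrg1 (chromosome 16, 63837216 to 64057434 in the deposited table, whose genome build is not given in the sources used here) was at the edge of detection. In sham LV it had 1, 7 and 2 reads, or 0.0123, 0.0816 and 0.0273 FPKM. In sham RV the 3 libraries had 14, 6 and 15 reads, or 0.16, 0.0799 and 0.191 FPKM. VO LV had 11, 0 and 22 reads, and the 0 allows a level of up to 0.0341 FPKM, the value of 3 reads. VO RV had 18, 43 and 17 reads, or 0.228, 0.453 and 0.195 FPKM, all above the highest sham RV library, with the top value in the replicate that stood apart by atrial transcripts. Mean levels were thus in the order VO RV (0.292 ± 0.14 FPKM, SD, n = 3), sham RV (0.144 ± 0.0573), VO LV (0.124 ± 0.122) and sham LV (0.0404 ± 0.0364). Among neighbours in this order only VO RV and sham RV did not overlap, and VO RV and sham LV did not overlap either. The exact two-sided permutation p of VO RV against sham RV was 0.1, the smallest that 3 libraries against 3 allow, so no pair of groups could reach the threshold. The groups rested on 10 to 78 reads each. The limit for 0 reads covers counting error only. The deposited annotation gives Nrg1 a span of 220219 bases and a counted length of 5293 bases, so reads on isoforms outside it would not have entered the value.

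Hbegf, the heparin-binding ligand of Egfr and Erbb4 (chromosome 18, 29329764 to 29340403), was the most abundant ligand transcript. It was 2.57, 2.68 and 2.19 FPKM in sham LV and 2.79, 2.77 and 2.29 FPKM in VO LV. In the RV it was 3.31, 3.27 and 2.66 FPKM after the sham operation and 3.5, 3.56 and 2.67 FPKM under VO. The groups overlapped in each of the 4 comparisons of levels. Mean levels ran from 3.24 FPKM in VO RV through 3.08 in sham RV and 2.62 in VO LV to 2.48 in sham LV. The log2 difference (log2 of FPKM + 0.5) was -0.26 for sham LV against sham RV (95% confidence interval -0.58 to 0.05), 0.07 for VO LV against sham LV (-0.25 to 0.38) and 0.06 for VO RV against sham RV (-0.25 to 0.38), so that changes of Hbegf under VO larger than 0.38 on this scale lie outside the intervals of both ventricles.

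Of the 11 ligand genes of the ErbB family, Hbegf alone reached the level for testing. Btc, Areg, Egf and Nrg4 had means of 0.344, 0.33, 0.305 and 0.266 FPKM over the 12 libraries, and Tgfa had 0.124 FPKM. The other neuregulins were lower still, with 0.0441 FPKM for Nrg3 and 0.021 FPKM for Nrg2, as was Ereg with 0.00735 FPKM. Epgn was listed at 0 in all 12 libraries. The levels are per gene length, so ligand genes can be compared on this scale.

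**Figure D1:**
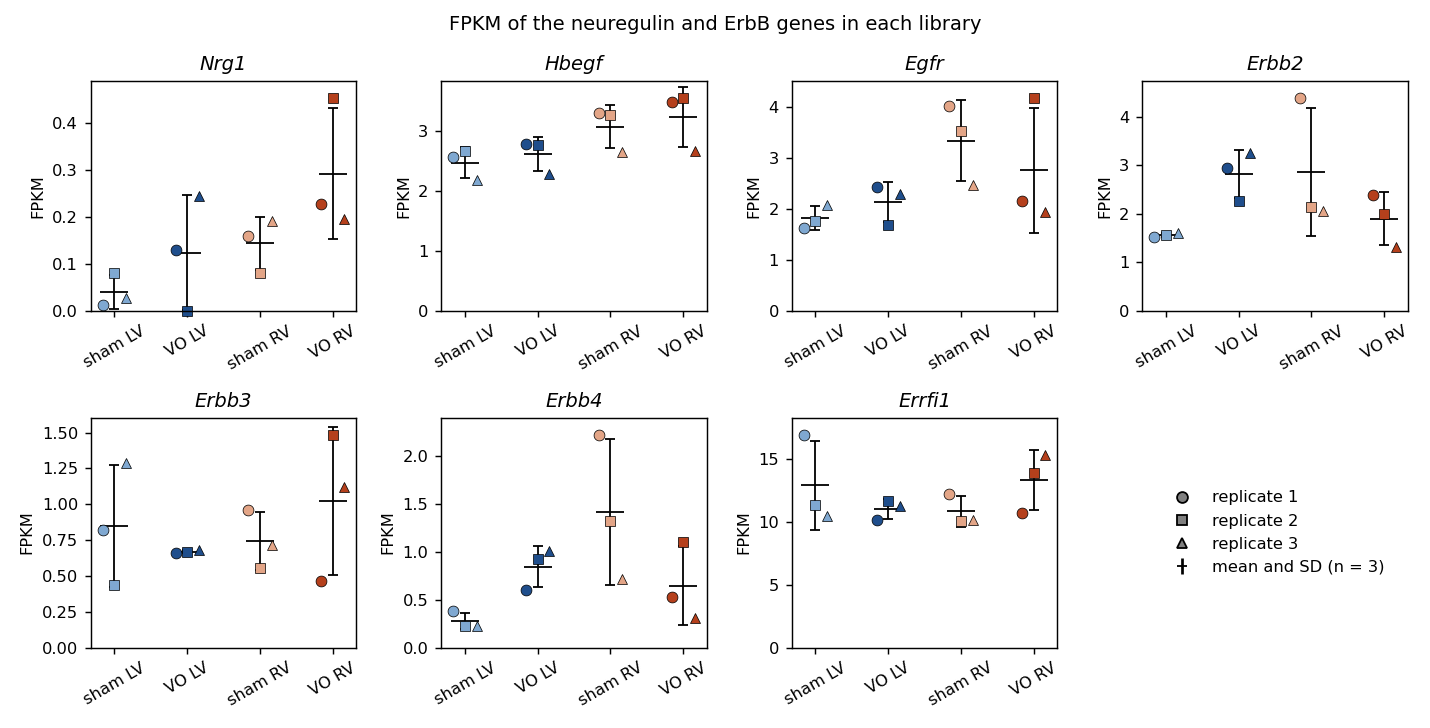
FPKM of each of the 7 genes (vertical axes, linear and starting at 0) in the 12 libraries by group. Symbols are replicates, and horizontal lines with error bars are means and SDs of 3 libraries. Erbb4 and Erbb2 in sham LV lie below all libraries of VO LV and of sham RV, whereas Hbegf and Errfi1 overlap between groups.

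Egfr, the receptor of Hbegf (chromosome 14, 99919485 to 100098796), had 1.63, 1.77 and 2.08 FPKM in sham LV and 4.02, 3.52 and 2.46 FPKM in sham RV. All sham RV libraries were above all sham LV libraries. Under VO the LV had 2.42, 1.68 and 2.30 FPKM and the RV 2.15, 4.17 and 1.95 FPKM, which overlapped with each other and with the sham values of the same ventricle. In order, the means were 3.33 ± 0.797 FPKM in sham RV, 2.76 ± 1.23 in VO RV, 2.13 ± 0.398 in VO LV and 1.83 ± 0.234 in sham LV (SD, n = 3), and no neighbours in this order were separated. The log2 difference between sham LV and sham RV was -0.70 (standard error 0.25, 95% confidence interval -1.25 to -0.16, adjusted p = 0.109 from limma), with an unadjusted p of 0.0155. It was -0.58 without sham RV replicate 1 (adjusted p = 0.315) and without both libraries that stood apart (adjusted p = 0.175), and with array weights, which give less weight to libraries far from the fit, it was -0.75 and passed the threshold (adjusted p = 0.0417). For VO RV against sham RV the difference was -0.28 (adjusted p = 0.764), and it was -0.15 without sham RV replicate 1, -0.57 without VO RV replicate 2 and -0.44 without both.

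Erbb2, the partner receptor (chromosome 10, 86367596 to 86391728), was tightly grouped in sham LV at 1.52, 1.56 and 1.60 FPKM. VO LV had 2.95, 2.27 and 3.25 FPKM, all higher than sham LV. In sham RV it was 4.39, 2.14 and 2.06 FPKM, the first of these in the replicate with atrial transcripts, and in VO RV it was 2.39, 2.0 and 1.31 FPKM. Sham RV was thus above sham LV in all libraries, and VO RV overlapped with sham RV. Mean Erbb2 was 1.81 times higher in VO LV than in sham LV (log2 difference 0.68, standard error 0.25, unadjusted p = 0.0206, adjusted p = 0.147 from limma) and 1.84 times higher in sham RV than in sham LV (-0.64 for LV against RV, adjusted p = 0.145). Without sham RV replicate 1 the latter was -0.34 (adjusted p = 0.425). VO RV against sham RV gave -0.44 (adjusted p = 0.640), which was -0.14 without sham RV replicate 1 and -0.18 without both libraries that stood apart. The order of means was 2.86 ± 1.33 FPKM in sham RV, 2.82 ± 0.499 in VO LV, 1.90 ± 0.549 in VO RV and 1.56 ± 0.038 in sham LV, with overlap between all neighbours.

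Erbb3, the neuregulin receptor with weak kinase activity (chromosome 7, 2989340 to 3010350), spread widely within 3 of the 4 groups. It was 0.822, 0.437 and 1.29 FPKM in sham LV and 0.657, 0.670 and 0.681 FPKM in VO LV. In sham RV it was 0.959, 0.558 and 0.715 FPKM and in VO RV 0.464, 1.48 and 1.12 FPKM. All groups overlapped. The log2 differences were 0.08 between the sham ventricles, -0.16 for VO in the LV and 0.24 for VO in the RV, each with a standard error of 0.30, so that a difference of up to 0.74 between the sham ventricles lies within the confidence interval. All of these values moved with single libraries. The RV value was 0.02 without VO RV replicate 2, 0.54 without VO RV replicate 1, 0.36 without sham RV replicate 1 and 0.14 without both libraries that stood apart. With 1 library left out at a time, the sham value ran from -0.15 to 0.32 and the LV value from -0.39 to 0.07, so both changed sign.

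Erbb4, the neuregulin receptor of cardiomyocytes (chromosome 9, 75021790 to 75528644), had the widest ratio of the highest to the lowest library among the receptors. Sham LV had 0.377, 0.227 and 0.228 FPKM, which rest on 22, 14 and 12 reads. Sham RV had 2.22, 1.32 and 0.709 FPKM, and even its lowest library was above the sham LV values. VO LV had 0.603, 0.921 and 1.00 FPKM, again all above sham LV. VO RV had 0.531, 1.10 and 0.305 FPKM, and overlapped with every other group. The means were 1.42 ± 0.759 FPKM in sham RV, 0.842 ± 0.211 in VO LV, 0.646 ± 0.411 in VO RV and 0.278 ± 0.0861 in sham LV, and neighbours in this order overlapped.

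Mean Erbb4 in sham LV was 5.1 times lower than in sham RV and 3.04 times lower than in VO LV. On the log2 scale with the pseudocount, which understates changes of low genes, sham LV differed from sham RV by -1.23 (standard error 0.32, 95% confidence interval -1.94 to -0.51, unadjusted p = 0.00293, adjusted p = 0.0566 from limma), just short of the threshold. Voom on the recovered reads gave -2.23 with an adjusted p of 0.0497, and array weights gave -1.18 with an adjusted p of 0.0279. Over the alternatives the adjusted p ran from 0.0279 to 0.206. The comparison of VO LV with sham LV gave 0.78 (0.07 to 1.49, adjusted p = 0.183) and that of VO RV with sham RV -0.72 (-1.43 to -0.01, adjusted p = 0.588). Over the alternatives the LV value ran from 0.52 to 1.58 and the RV value from -1.16 to -0.43. The latter was -0.43 without sham RV replicate 1 (adjusted p = 0.922), -0.99 without VO RV replicate 2 and -0.70 without both. Without sham RV replicate 1 the sham difference was -0.94 (adjusted p = 0.206), and without both libraries that stood apart by atrial transcripts it was -0.94 (adjusted p = 0.141). Without VO RV replicate 2 or 3, which are outside this comparison but share its estimate of the spread, the adjusted p was 0.0425 and 0.0431. Erbb4 passed the filter on low values through 3 of the 4 groups, its mean in sham LV being below 0.5 FPKM.

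Errfi1, the receptor inhibitor (chromosome 5, 167952728 to 167966009), was the most abundant member. It had 17.0, 11.3 and 10.5 FPKM in sham LV and 10.2, 11.7 and 11.3 FPKM in VO LV. The RV had 12.3, 10.1 and 10.2 FPKM after the sham operation and 10.7, 13.9 and 15.4 FPKM under VO. Sham LV replicate 1 was the highest of all 12 libraries, and all groups overlapped. The log2 difference was -0.19 (95% confidence interval -0.58 to 0.20) for VO in the LV and 0.28 (-0.11 to 0.67) for VO in the RV, with adjusted p of 0.548 and 0.664 from limma.

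**Figure D2:**
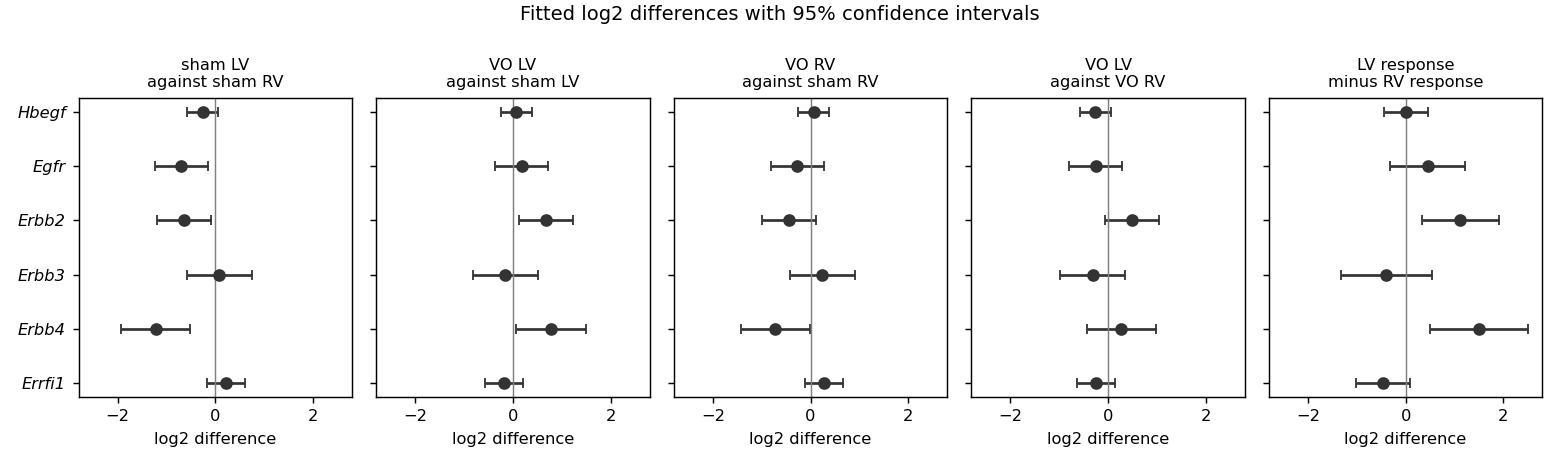
Log2 differences (horizontal axes, log2 of FPKM + 0.5) of the 6 tested genes in the 5 comparisons, with bars for 95% confidence intervals from limma. For Erbb4 the interval of sham LV against sham RV runs from -1.94 to -0.51 and that of the difference between the responses from 0.49 to 2.51, and the intervals of Hbegf, Erbb3 and Errfi1 include 0 in all 5 comparisons.

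A gene was called a DEG (differentially expressed gene) at an adjusted p under 0.05 over all 13910 tested genes and a fold change over 1.3. Between the sham ventricles 0 of the 6 tested members were DEGs by limma (3.86% of all tested genes were) and 1, Erbb4, by voom (4.91% of all tested genes). At an unadjusted p under 0.05 with the same fold there were 3, Erbb4, Egfr and Erbb2, all lower in the LV, against 17.8% of all genes. The libraries did not overlap for the same 3 members, against 32.2% of all genes. The median log2 difference was -0.45 over the 6 members and 0.01 over all tested genes.

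Under VO, 0 of 6 members were DEGs in the LV by limma (0.0935% of all genes) or voom (2.45%), and 2, Erbb2 and Erbb4, had an unadjusted p under 0.05, both higher under VO (15.7% of all genes). The same pair did not overlap between VO LV and sham LV, against 32.4% of all genes. In the RV, 0 of 6 members were DEGs by either tool (0.0% of all genes by limma), 1 of 6, Erbb4, was lower under VO at the unadjusted p (4.91%, and its difference was -0.43 without sham RV replicate 1, against -0.72), and 0 of 6 did not overlap (12.5%). Between VO LV and VO RV, 0 of 6 were DEGs by either tool (0.00719% of all genes), 0 passed the unadjusted p (7.4%) and 0 were separated (16.1%). With 6 genes tested, the shares of the members are given as counts beside those of all genes and were not compared further.

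The difference between the responses, which is the LV change under VO minus the RV change, reuses the sham libraries of the comparisons above. By limma and by voom 0 of 6 members were DEGs for it (4.19% of all genes by limma and 5.77% by voom). At the unadjusted p there were 2 of 6 against 23.1% of all genes. Erbb4 had a difference of 1.5 (standard error 0.46, 95% confidence interval 0.49 to 2.51, adjusted p = 0.0806) and Erbb2 of 1.12 (standard error 0.36, 0.34 to 1.91, adjusted p = 0.0889). Over the alternatives the difference ran from 1.05 to 2.75 for Erbb4 and from 0.82 to 1.41 for Erbb2. For both genes the mean under VO was higher in the LV and lower in the RV than after the sham operation, and the lower RV values rested in part on sham RV replicate 1, without which the RV difference was -0.43 for Erbb4 and -0.14 for Erbb2. Without the pair of libraries that stood apart by atrial transcripts the differences were 1.48 and 0.86, with adjusted p of 0.0871 and 0.138. Without VO RV replicate 2 or sham RV replicate 3 alone, the adjusted p of Erbb4 was 0.044 and 0.0482. With the atrial marker score as a covariate both genes passed the threshold, as did 8.72% of all genes, with differences of 1.58 for Erbb4 (adjusted p = 0.0274) and 1.17 for Erbb2 (adjusted p = 0.0491) by limma. The 8 markers of ventricular cardiomyocytes moved in both directions. For this difference 5 were above 0 and 3 below, with 3 DEGs, Ryr2 (1.61), Myh7 (1.18) and Myh6 (0.89), while Tnni3 had -0.51 and Tnnt2 -0.24, neither of them a DEG. Between the sham ventricles 4 were above and 4 below 0, with a median of -0.03, and Ryr2 was the DEG among them (-0.94), whereas Tnni3 (0.57) and Tnnt2 (0.31) were higher and Myh6 (-0.50, adjusted p = 0.0538) and Myh7 (-0.46, adjusted p = 0.0674) lower in every sham LV library than in every sham RV library. Without sham RV replicate 1, 0 of 13910 tested genes were DEGs between the sham ventricles or for the difference between the responses. The part of cardiomyocyte transcripts in the Erbb4 and Erbb2 values was not tested. Egfr (0.45), Hbegf (0.01), Erbb3 (-0.40) and Errfi1 (-0.47) had intervals that include 0.

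**Figure D3:**
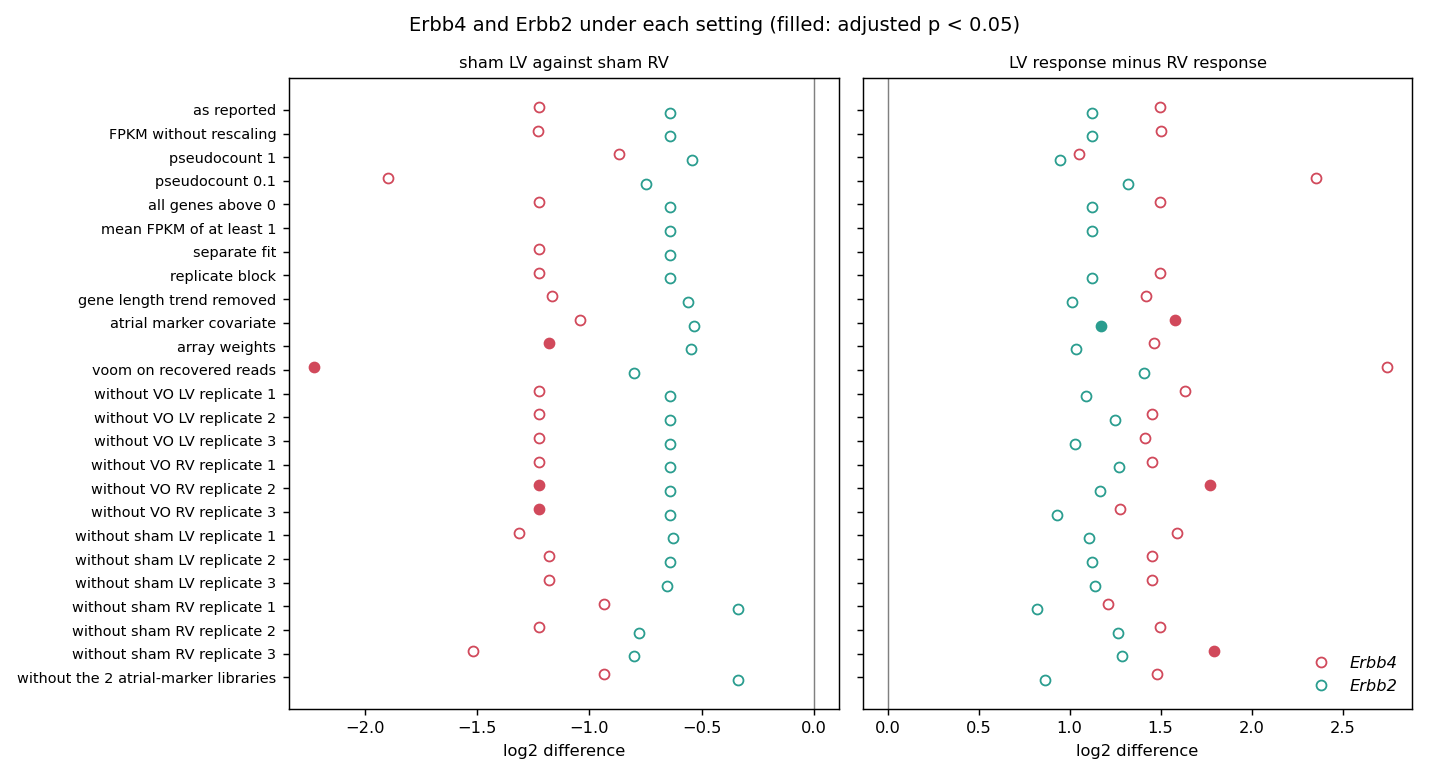
Log2 differences of Erbb4 and Erbb2 (horizontal axes) under each setting of the analysis (vertical axis), for sham LV against sham RV and for the difference between the responses, with filled symbols where the adjusted p was under 0.05. Erbb4 ranges from -2.23 to -0.87 between the sham ventricles and Erbb2 from -0.80 to -0.34, and neither changes sign. Erbb4 was not tested at a mean of at least 1 FPKM, and the separate fit gives no difference between the responses.

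Gene length moved with these comparisons across all tested genes. Spearman's rho between gene length and the log2 difference was -0.232 for sham LV against sham RV, 0.189 for VO in the LV, -0.178 for VO in the RV and 0.211 for the difference between the responses, across 13910 genes that are not independent replicates. The 3362 genes of at least 3500 bases had a median of -0.08 between the sham ventricles, and the 4228 genes under 1500 bases a median of 0.13. The counted lengths of Erbb4, Erbb2, Egfr and Erbb3 were 3796, 4743, 4158 and 5934 bases, and those of Hbegf and Errfi1 2305 and 2980 bases. With the length trend of each library removed, Erbb4 was -1.17 and Erbb2 -0.56 between the sham ventricles.

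The receptors were also compared as shares of their summed FPKM, a measure within each library. The sum averaged 4.51 ± 0.621 FPKM in sham LV and 6.47 ± 0.854 FPKM in VO LV (SD, n = 3), and 8.36 ± 2.91 FPKM in sham RV and 6.32 ± 2.15 FPKM in VO RV. All sham LV sums were below those of VO LV and of sham RV. Erbb4 made up 8.67%, 5.70% and 4.39% of it in sham LV and 19.1%, 17.5% and 11.9% in sham RV. In VO LV it made up 9.09%, 16.6% and 13.9%, above every sham LV library, and in VO RV 9.59%, 12.6% and 6.51%. Erbb2 made up 35.0% ± 4.19 in sham LV and 43.5% ± 2.14 in VO LV, without overlap, and Egfr 40.6% ± 3.44 and 32.9% ± 3.27, also without overlap. The shares of a library add up to 100%, so a higher share of one receptor goes with lower shares of others, and Egfr itself had mean levels of 2.13 FPKM (VO LV) and 1.83 FPKM (sham LV). The Egfr share was also lower in VO LV than in every VO RV library (42.7% ± 4.51). For the sums and shares that did not overlap the exact two-sided permutation p was 0.1, and adjusted over the 20 tests of this family it was 0.286. Erbb3 shares overlapped in all comparisons and ran from 7.40% to 24.8%.

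**Figure D4:**
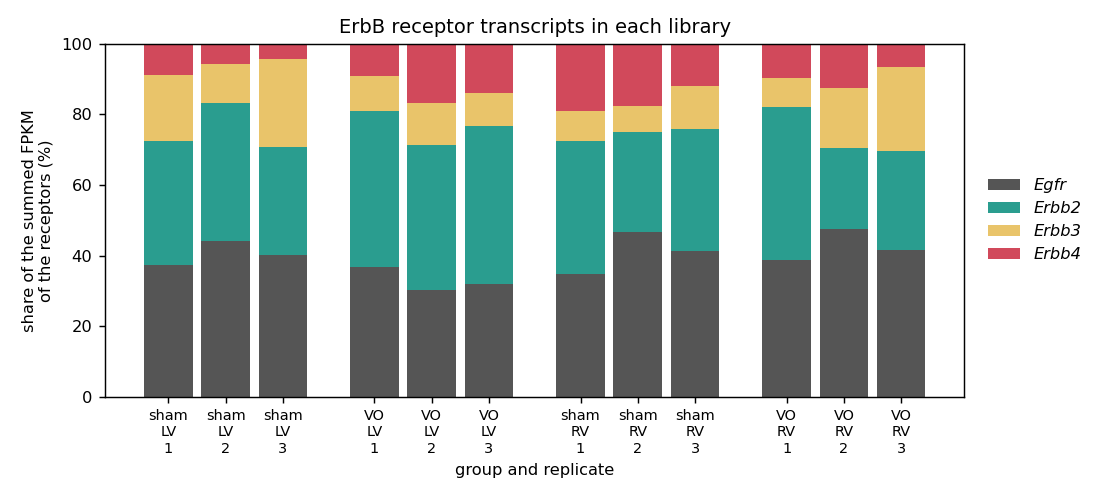
Share of the summed FPKM of the receptors (vertical axis, percent) taken by Egfr, Erbb2, Erbb3 and Erbb4 in each of the 12 libraries. Erbb4 takes 4.39% to 8.67% in sham LV and 9.09% to 19.1% in VO LV and sham RV.

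Across the pathway, 88 genes in 9 lists were read, from ligands and their shedding to receptors and downstream cascades, and they include the members. Of these 87 were matched and 76 tested. Between the sham ventricles 4 were DEGs, all lower in the LV (5.26%, against 3.86% of all genes), and 17 passed the unadjusted p, of which 14 were lower in the LV (22.4%, against 17.8%). The median log2 difference was -0.11 over the 76 genes and 0.01 over all tested genes. Dusp5, a nuclear phosphatase of ERK, was 3.04, 4.05 and 3.28 FPKM in sham LV and 6.38, 8.68 and 7.51 FPKM in sham RV (log2 difference -1.02, adjusted p = 0.0325 from limma). Akt2, an Akt kinase of insulin and growth factor signalling, was 40.2, 34.7 and 49.3 FPKM in sham LV and 63.9, 60.4 and 65.2 FPKM in sham RV (-0.62, adjusted p = 0.0462). Both sets of libraries were fully separated.

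Lrig1, a membrane protein that promotes degradation of ErbB receptors, was 10.2, 8.14 and 9.09 FPKM in sham LV and 14.2, 13.3 and 12.2 FPKM in sham RV (-0.51, adjusted p = 0.0451 from limma). Ptpn11, the phosphatase Shp2 that couples receptors to Ras, was 29.2, 29.8 and 34.5 FPKM in sham LV and 44.8, 40.6 and 44.6 FPKM in sham RV (-0.47, adjusted p = 0.0498). All 4 genes thus lay lower in every sham LV library, and Dusp5 and Lrig1 belong to the inhibitor list with Errfi1, which overlapped between the groups. Among the genes that had higher values in sham LV at the unadjusted p were the PI3-kinase subunit Pik3cd (0.54), the ERK-induced factor Fosl1 (0.47) and the phospholipase Plcg1 (0.39). Without sham RV replicate 1 the count of DEGs was 0, as it was without either of the other sham RV replicates, without sham LV replicate 1 or 2, or without VO LV replicate 2. It was 1 without VO LV replicate 1 or 3 and 2 without sham LV replicate 3. With the replicate number as a block it was 0 (0.0216% of all genes were called). Over all genes the DEGs numbered 537 as reported, and 173 and 456 without VO LV replicates 1 and 3, 420 without sham LV replicate 3, 0 without sham RV replicate 1, 4 and 185 without sham RV replicates 2 and 3, 3 and 1 without sham LV replicates 1 and 2, and 5 without VO LV replicate 2. Without VO RV replicate 1, 2 or 3, libraries outside this comparison, the pathway count was 4, 5 and 6 and that over all genes 524, 720 and 870.

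In the LV under VO, 0 of the 76 pathway genes were DEGs by limma (0.0935% of all genes) and 4 by voom (2.45% of all genes), and 15 passed the unadjusted p, 14 of them higher (19.7%, against 15.7% of all genes). Akt2 was 67.9, 70.8 and 77.7 FPKM in VO LV, a log2 difference of 0.81 (adjusted p = 0.0514 from limma). Dusp5 was 6.24, 6.38 and 9.28 FPKM in VO LV (0.97, adjusted p = 0.0517), and Lrig1 was 12.8, 13.5 and 14.4 FPKM (0.55, adjusted p = 0.058). These values lay above all sham LV libraries of the same gene. Plcg1 was the gene with the opposite direction, at 49.1, 55.2 and 41.0 FPKM in VO LV against 63.4, 76.2 and 56.3 FPKM in sham LV (-0.42, adjusted p = 0.141). Leaving out VO RV replicate 1, VO RV replicate 3 or sham LV replicate 3 brought the count of DEGs to 3, 6 and 1, and that over all genes from 13 to 174, 554 and 307.

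In the RV under VO, 0 of 76 pathway genes were DEGs by limma or voom, and 4 passed the unadjusted p (5.26%, against 4.91% of all genes). Besides Erbb4 these were the PI3-kinase subunit Pik3r3 (-0.44) and, with higher values under VO, the ERK-induced transcription factors Egr1 (0.70) and Etv4 (0.46). Egr1 was 7.25, 5.36 and 6.39 FPKM in sham RV and 7.62, 14.1 and 10.8 FPKM in VO RV, without overlap. The 14.1 FPKM was in VO RV replicate 2, which stood apart by atrial transcripts. All 8 ERK-induced transcripts had a log2 difference above 0 in the RV, with a median of 0.32, and 5 of the 8 in the LV, with a median of 0.03. The medians over all tested genes were 0.0029 and -0.02, and 0 of the 8 were DEGs by limma in either ventricle. Other lists also leaned to 1 direction in the RV, with 0 of 8 receptor turnover genes and 2 of 10 Ras-ERK genes above 0. The share of all tested genes above 0 was not counted. Between VO LV and VO RV 0 of 76 were DEGs by limma or voom and 3 passed the unadjusted p (3.95%, against 7.4%), the PI3K-Akt genes Akt2 (0.42), Pik3r3 (0.47) and Pdpk1 (0.42), all higher in the LV.

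**Figure D5:**
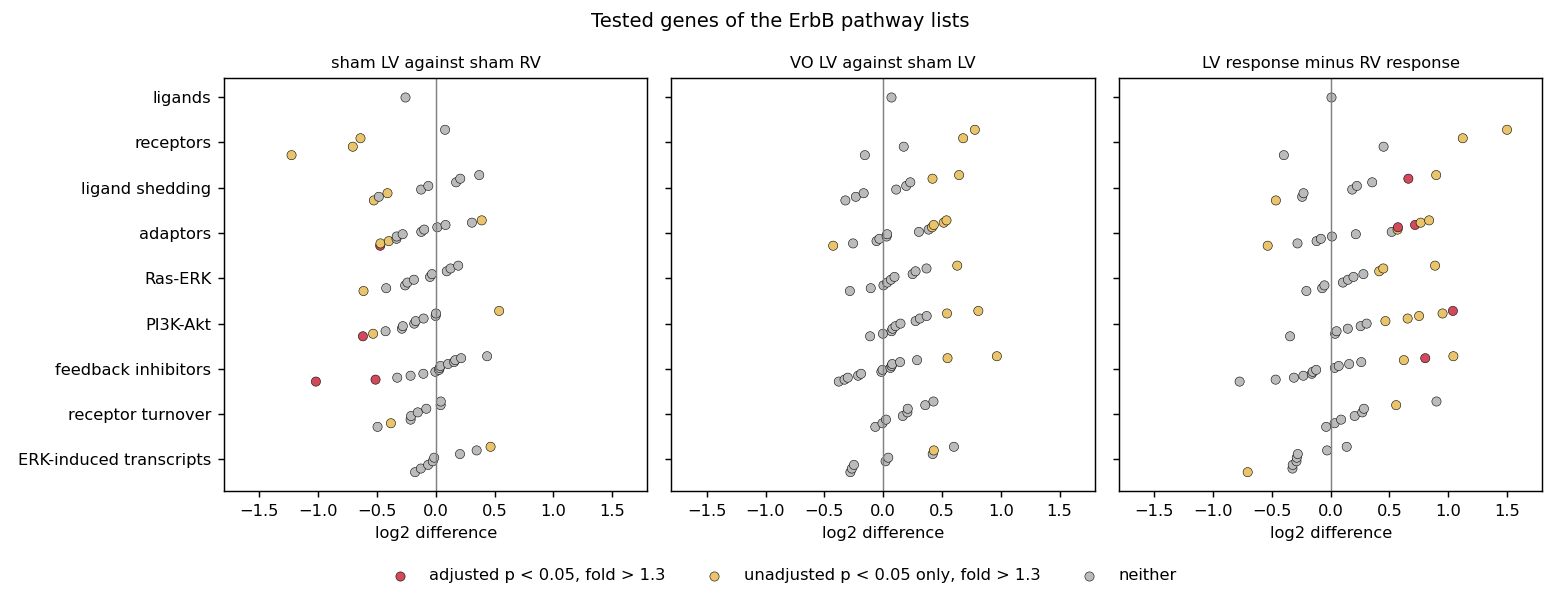
Log2 differences (horizontal axes) of the 76 tested pathway genes by list (vertical axis), for sham LV against sham RV, VO LV against sham LV and the difference between the responses. Each point is a gene, ordered by value within its list, and colours give the call by limma. The receptors have medians of -0.67, 0.43 and 0.79 in the 3 panels.

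For the difference between the responses 5 of 76 pathway genes were DEGs, all with the higher change in the LV (6.58%, against 4.19% of all genes), and 24 passed the unadjusted p, 21 of them with the higher change in the LV (31.6%, against 23.1%). The DEGs were Akt2 (1.04), Lrig1 (0.80), Ptpn11 (0.72), the neuregulin-cleaving metalloprotease Adam19 (0.66) and the Ras exchange factor Sos1 (0.57). The 3 genes with the lower change in the LV were Etv4 (-0.70, adjusted p = 0.114), Plcg1 (-0.54, adjusted p = 0.158) and Rhbdf1, an inactive rhomboid protein that takes part in ligand shedding (-0.47, adjusted p = 0.171), and none of them was a DEG. Adam19 was 68.7, 58.5 and 69.4 FPKM in sham LV and 80.3, 88.1 and 94.3 FPKM in VO LV. In the RV it was 97.0, 81.1 and 83.4 FPKM after the sham operation and 81.6, 71.8 and 67.3 FPKM under VO. The LV values were thus all higher under VO, and the RV values overlapped. Sos1 was 5.95, 4.99 and 5.83 FPKM in sham LV, 7.40, 7.46 and 8.19 FPKM in VO LV, 7.09, 7.74 and 6.64 FPKM in sham RV and 6.0, 6.75 and 6.53 FPKM in VO RV. The PI3K-Akt list had a median of 0.31 with 10 of 11 genes above 0, the adaptors 0.37 with 8 of 12, and the ERK-induced transcripts -0.29 with 1 of 8, beside a median of -0.04 over all tested genes. The count of DEGs was 0 without both libraries that stood apart by atrial transcripts, and also without 1 of the libraries VO LV replicate 2 or 3, VO RV replicate 3, sham LV replicate 1 or 2, or sham RV replicate 1 or 2. It was 1 without VO LV replicate 1, 6 without sham LV or sham RV replicate 3, 8 without VO RV replicate 1 and 9 without VO RV replicate 2. Over all genes the DEGs numbered 583 as reported, 0 to 4 without sham LV replicate 1 or 2, sham RV replicate 1 or 2, or VO LV replicate 2 or 3, 111 without VO RV replicate 3, 240 without VO LV replicate 1, 764 without sham LV replicate 3, 567 without sham RV replicate 3, 2 without both libraries that stood apart, 1003 without VO RV replicate 1 and 909 without VO RV replicate 2.

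The genes most like each member were ranked by Pearson's r of log2 values over the 12 libraries, which share depth and groups, and are given as a description. Erbb4 was most like Ino80d (0.965), Plxna4a (0.96) and Cers4 (0.959), and Erbb2 most like Asb7 (0.955), Ammecr1 (0.944) and Rxra (0.94). For Egfr they were Col6a6 (0.947), Dpy19l3 (0.941) and Igdcc4 (0.929), and for Erbb3 Heph (0.942), Stat6 (0.908) and Sec63 (0.902). Nrg1 was most like Aldh1a3 (0.924), Tmem100 (0.92) and Pbxip1 (0.914). These r values rest on 0 to 43 reads of Nrg1 a library, with the highest count in VO RV replicate 2. Hbegf was most like Zcchc5 (0.869), Lrrc55 (0.867) and Cpne5 (0.859), and Errfi1 most like Agtr1a (0.901), Qpctl (0.887) and Sult5a1 (0.883). Among the members themselves, Erbb4 had an r of 0.791 with Erbb2 and of 0.775 with Egfr, and ranked 684 and 327 among the 13909 genes ranked for those receptors. Erbb3 had an r of 0.0565 with Erbb4 and -0.164 with Erbb2.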

How the data were processed

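Libraries from the LV and RV free walls of sham and VO rats (3 in each of 4 groups, grouped by their labels) were analysed from the deposited table. Per the paper's methods and the submitters' processing notes, the authors discarded reads of low quality or with adapters or undetermined bases, aligned the others with HISAT2 2.0.5, counted them per gene with featureCounts 1.5.0-p3 and deposited FPKM. The genome build and strand setting are not given in the sources used here, and 0 columns of values were left unmapped. In FPKM, 1 read is worth a fixed step per library and gene length. All values under 200 reads (100%) were whole within 0.02, so reads were recovered, 14121713 to 16871371 per library.

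FPKM were divided by median-ratio size factors (1.002 to 1.007), 0.5 was added and log2 taken. The 13910 genes with a mean of at least 0.5 FPKM entered 1 limma model of the 4 groups (limma 3.58.1 in R 4.3.3, eBayes with trend), with Benjamini-Hochberg adjustment over all of them. The thresholds were those of the study's methods. Single members were also compared by exact two-sided permutation tests. The procedure was also run on simulated data with independent errors and with changes set in VO LV alone. These data held no gene length trend and no libraries that stood apart, so the run does not bear on how the calls depend on single libraries.

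The members and lists were chosen with earlier results of these data known. The text names all members and, of the pathway lists, every DEG and in each comparison up to 3 higher and 3 lower genes with the smallest unadjusted p, and up to 3 genes most like each member. Crkl was not matched and is not analysed here. Erbin was matched through its RefSeq synonym Erbb2ip, and Grb2, listed more than once, was read from the row with the higher level. Alternatives were FPKM without rescaling, other pseudocounts and filters, separate fits, the replicate number as a block, removal of the gene length trend (lowess, span 0.3), an atrial marker covariate, array weights, voom on recovered reads, and each of the 12 libraries left out in turn. Leaving out both libraries with atrial transcripts was added after the data were seen. Positions of members are those of the deposited table. Promoter sequences and their positions are from RefSeq on GRCr8, and none of the table's positions was converted.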

Additional observations from a re-analysis of the deposited data

Results flagged for a closer look

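The change under VO differed between the LV and the RV for 5 of 76 tested genes of the ErbB pathway (6.58%, against 4.19% of all tested genes), by limma's test of the difference itself at an adjusted p under 0.05. The difference (LV change minus RV change, log2 scale) was 1.04 for Akt2, 0.804 for Lrig1, 0.717 for Ptpn11, 0.66 for Adam19 and 0.572 for Sos1, with adjusted p of 0.0319, 0.0343, 0.0418, 0.0422 and 0.0491 from limma. None of the 6 tested neuregulin and ErbB genes met this threshold. Over the alternatives the adjusted p ran from 0.0186 to 0.0943 for Akt2, 0.0155 to 0.102 for Lrig1, 0.0226 to 0.117 for Ptpn11, 0.0246 to 0.119 for Adam19 and 0.031 to 0.129 for Sos1. With the replicate number as a block 0 of the pathway genes were called (0.00719% of all genes), and the count was also 0 on leaving out any 1 of 7 libraries (VO LV replicates 2 and 3, VO RV replicate 3, sham LV replicates 1 and 2, sham RV replicates 1 and 2). With 3 libraries a group, the test for a single outlying value within a group was not run.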

How the results depend on the processing

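Of 704 values of members under the alternatives, 679 kept their direction and side of the threshold, 9 newly passed it and 16 changed direction. Leaving out 1 library at a time gave, for Erbb3, -0.15 to 0.32 between the sham ventricles and -0.394 to 0.0731 for VO in the LV. It gave -0.43 to 0.0389 for Egfr in VO LV against VO RV, and this was also 0.0389 without both libraries with atrial transcripts. For Hbegf it gave -0.00376 to 0.146 (VO in the LV), -0.0259 to 0.178 (VO in the RV) and -0.111 to 0.0925 (difference between responses, -0.0258 with the length trend removed), and for Errfi1 -0.317 to 0.017 (VO in the LV).

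Percentages in parentheses are the calls over all tested genes under the same setting. Members called between the sham ventricles numbered 2 with array weights (9.5%), 1 with voom (4.91%) and 0 to 1 with 1 library left out. The 1 was called without VO RV replicate 2 or 3 (5.18% and 6.25%). For the difference between responses there were 2 with the atrial marker covariate (8.72%) and 0 to 1 with 1 library left out. Pathway genes called between the sham ventricles (4 as reported) numbered 0 with all genes above 0 tested or without both libraries with atrial transcripts (0.037% and 0.0503% of all genes), 1 in separate fits or with the atrial covariate (2.26% and 2.47%), 8 with array weights (9.5%) and 0 to 6 with 1 library left out (0% to 6.25%). For VO in the LV (0 as reported) there was 1 at a pseudocount of 0.1 (0.403%), 2 at a mean of at least 1 FPKM or with the atrial covariate (1.44% and 2.33%), 7 with array weights (5.06%), 4 with voom (2.45%) and 0 to 6 with 1 library left out (0% to 3.98%). For the difference between responses (5 as reported) there were 0 with all genes above 0 or without both atrial libraries (0.0972% and 0.0144%), 8 at a mean of at least 1 FPKM, with array weights or with voom (5.28%, 7.53% and 5.77%), 2 with the length trend removed (2.83%), 12 with the atrial covariate (8.72%) and 0 to 9 with 1 library left out (0% to 7.21%). The causes were not tested. With all genes above 0, 21603 genes instead of 13910 entered the adjustment.

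Same-numbered libraries had an r of deviations of -0.283 to 0.123, with 2 of 18 over 0.1, and most of these pairs join a sham with a VO library. For the LV and RV libraries of 1 treatment r was 0.045, 0.038 and 0.123 (sham) and 0.054, -0.051 and -0.219 (VO). With 3 libraries a group the deviations depend on each other, so these values cannot exclude that LV and RV libraries came from the same animals. With the replicate block, 0 members were called in all 5 comparisons, and pathway calls were 0 between the sham ventricles and 0 for the difference between responses (0.0216% and 0.00719% of all genes).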
